A study of Mus musculus with 18 samples.

Results

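The comparison described here is that of 6 libraries carrying hairpin shRNF185.3 with 6 control libraries, 12 of the 18 RNA libraries of a study of MPC3 cells, a mouse prostate cancer line in culture. The libraries were chosen by their labels and column names: shRNF185.3 marks cells in which Rnf185 was knocked down by the hairpin of that name, and the control libraries are titled plko. The remaining 6 libraries carry a different Rnf185 hairpin, shRNF185.1, and served here for direct tests between the hairpins. The labels place 2 libraries of every group in each of 3 batches. The hairpin sequences, whether the control vector carries a hairpin of its own, and whether libraries of a group came from separate transductions are not given in the sources used here, so p-values measure the spread between these libraries, which may be technical.

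Rnf185 encodes a RING-type ubiquitin ligase in the membrane of the endoplasmic reticulum, where it takes part in the degradation of misfolded or unneeded membrane proteins. Col3a1, the collagen gene in the study's title, encodes the chain of type III collagen, a fibril-forming protein of the extracellular matrix that is secreted through the same compartment. A short hairpin RNA is transcribed in the cell, processed to a small interfering RNA and lowers transcripts it pairs with, and a different hairpin against the same gene has its own set of partly matching transcripts.

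Values below are CPM, counts scaled by the authors to a common library size, given as the lowest, the median and the highest of the 6 libraries of a group. Log2 fold changes are from edgeR fitted to all 18 libraries, ± standard error, and adjusted p is Benjamini-Hochberg adjusted over 14309 genes. Called means an adjusted p below 0.05. Total counts were 22027395 to 32248044 with shRNF185.3 and 24067000 to 43379662 in control (exact permutation test, two-sided, p = 0.119). The 7 endothelial markers summed to at most 1.7 CPM in any of these 12 libraries, and 8 of 9 leukocyte markers stayed under 1 CPM, with Cd3e and Tyrobp at 0. Of the luminal prostate markers, Krt8 and Krt18 were abundant and Pbsn, the probasin gene, was at 0. In bulk RNA, fewer cells of a type and less RNA per cell cannot be told apart.

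Rnf185 was lowered in every knockdown library. It stood at 33.6, 36.2 and 38.4 CPM in control and at 5.19, 5.73 and 6.72 CPM with shRNF185.3, a log2 change of -2.63 ± 0.07 (adjusted p = 1.91e-14), which leaves 16.2% of the control level. The ranges did not overlap. Between the hairpins Rnf185 differed by -0.000832 (adjusted p = 0.997), with 5.21, 5.63 and 6.8 CPM under shRNF185.1. Col3a1 rose from 388, 566 and 745 to 1170, 1660 and 2080 CPM, a log2 change of 1.6 ± 0.18 (adjusted p = 2.48e-06), and all 6 knockdown libraries lay above the control range. Col3a1 was 0.49 higher than with shRNF185.1, which did not pass the threshold (adjusted p = 0.0688).

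Across all genes tested, 3906 of 14309 (27.3%) were called between shRNF185.3 and control, 2025 higher (14.2%) and 1881 lower (13.1%). A change of at least 2-fold was called in 561 genes (3.92%), of which 424 were higher (2.96%) and 137 lower (0.957%). Large changes were thus found more often upward. All 6 shRNF185.3 libraries lay above all 6 controls in 1087 genes (7.6%) and below them in 816 (5.7%). The median log2 change over all genes was -0.0186, and chromosome medians ran from -0.0486 to 0.000405.

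**Figure D1:**
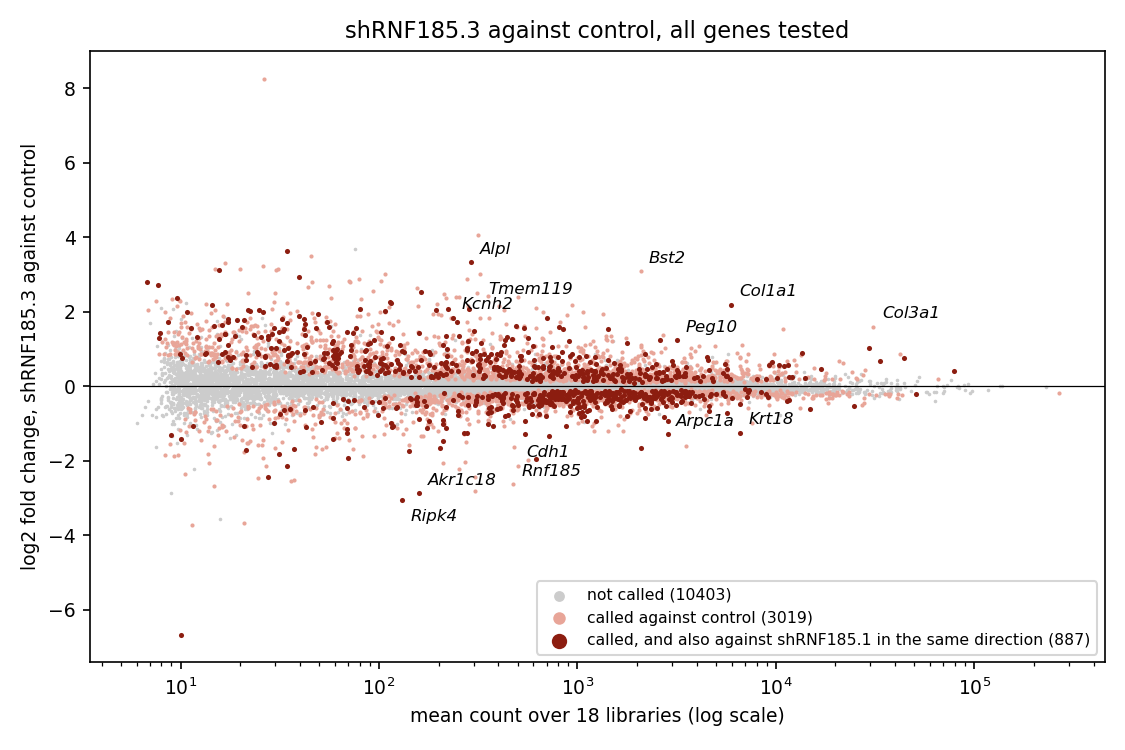
Log2 fold change of shRNF185.3 against control (vertical axis) by mean count over the 18 libraries (horizontal log axis), with a point for each of 14309 genes. Pale red points are genes called against control and dark red points are the 887 genes that were also called against shRNF185.1 in the same direction; Alpl lies far above 0 and Ripk4 and Rnf185 far below.

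Among called genes with a mean count of 50 or more that kept their direction in all 3 batches, the 10 largest rises combined mineralisation, angiotensin, interferon and contractile genes. Alpl, which encodes tissue-nonspecific alkaline phosphatase, an enzyme needed for bone mineral deposition, went from 1.59, 2.15 and 2.86 CPM in control to 18.6, 21.9 and 26.4 CPM with shRNF185.3 (log2 3.34 ± 0.15, adjusted p = 1.53e-11). Tmem119, a membrane protein gene known from bone-forming cells and microglia, went from 1.21, 2.07 and 3.51 to 11.6, 18.6 and 21.6 CPM (log2 3.02 ± 0.22, adjusted p = 1.93e-08). Both genes were low in all controls and none of their knockdown libraries reached the control range. Enpep, the aminopeptidase that trims angiotensin, went from 0.465, 0.644 and 1.1 to 3.78, 5.86 and 7.94 CPM (log2 3.02 ± 0.3, adjusted p = 5.26e-07). Agt, the gene of the angiotensin precursor, went from 0.126, 0.528 and 0.963 to 2.08, 4.14 and 4.99 CPM (log2 2.79 ± 0.45, adjusted p = 0.000139). Enpep and Agt thus rose from very low control levels, and neither overlapped control. Cnn1, the smooth muscle calponin, rose from 0.467, 0.786 and 1.82 to 3.32, 6.31 and 10 CPM (log2 2.83 ± 0.34, adjusted p = 5.98e-06). Against shRNF185.1, Tmem119, Enpep, Agt and Cnn1 were not called. They differed from it by 0.176, 0.193, 0.0269 and 0.824 (adjusted p = 0.67, 0.731, 0.984 and 0.0801).

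Interferon-linked genes and Inmt completed this group, and none of them was called against shRNF185.1. Psmb8, Zbp1, Slfn2, Bst2 and Inmt differed from it by 0.21, 0.243, -0.0326, 1.13 and -1.21 (adjusted p = 0.634, 0.763, 0.968, 0.403 and 0.167). Psmb8, a catalytic subunit of the immunoproteasome, rose from 1.26, 2.09 and 2.59 to 9.83, 16.9 and 19.1 CPM (log2 2.87 ± 0.24, adjusted p = 9.42e-08). Zbp1, a sensor of unusual nucleic acid structures, rose from 0.188, 0.694 and 0.817 to 2, 4.01 and 7.64 CPM (log2 2.87 ± 0.41, adjusted p = 4.12e-05), and Slfn2, a Schlafen family gene, from 0.188, 0.504 and 1.07 to 2.65, 3.62 and 4.4 CPM (log2 2.81 ± 0.32, adjusted p = 2.64e-06). In Psmb8, Zbp1 and Slfn2 the shRNF185.3 and control ranges did not overlap. Bst2, the gene of the antiviral membrane protein tetherin, behaved differently: 4.39, 13.4 and 36.5 CPM in control, 16.9, 49.1 and 681 CPM with shRNF185.3, overlapping ranges and a log2 change of 3.09 ± 0.82 (adjusted p = 0.00847). Its differences from control were 0.487, 0.544 and 5.51 on the log2 scale in batches 1, 2 and 3, and without batch 3 the change was 0.51 (adjusted p = 0.509). Inmt, which encodes a methyltransferase of indole amines, went from 0.0234, 0.29 and 0.532 to 0.501, 0.913 and 5.6 CPM (log2 2.69 ± 0.7, adjusted p = 0.00756), overlapping control, with 0.814, 3.49 and 7.22 CPM under shRNF185.1, and its change without batch 2 was 1.43 (adjusted p = 0.0586).

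The 10 largest falls by the same rule held Rnf185 itself and several genes of epithelial cells. Ripk4, a kinase needed for epidermal differentiation, went from 7.37, 9.43 and 12.3 to 0.894, 1.06 and 1.54 CPM (log2 -3.06 ± 0.16, adjusted p = 1.7e-10). Perp, a desmosome-associated membrane protein gene, went from 17.2, 21.2 and 33.4 to 3.24, 4.35 and 5.38 CPM (log2 -2.43 ± 0.19, adjusted p = 4e-08). Cdh1, which encodes E-cadherin of adherens junctions, went from 24.2, 31.2 and 57.7 to 5.63, 7.69 and 10.5 CPM (log2 -2.13 ± 0.25, adjusted p = 4.85e-06). Every knockdown library was below every control library in these genes. Areg, a ligand of the epidermal growth factor receptor, fell from 12.8, 16.4 and 23.7 to 2.77, 3.52 and 5.29 CPM (log2 -2.21 ± 0.19, adjusted p = 1.01e-07). Npnt, the matrix protein nephronectin, fell from 28, 40.9 and 58.4 to 7.9, 9.97 and 13.5 CPM (log2 -1.98 ± 0.17, adjusted p = 9.91e-08). Tspan8, a tetraspanin gene, fell from 24.3, 36.3 and 52.5 to 6.41, 9.66 and 11.9 CPM (log2 -1.96 ± 0.2, adjusted p = 7.73e-07). None of these ranges overlapped either. Against shRNF185.1, Perp, Cdh1 and Areg were not called (differences 0.056, -0.218 and -0.499, adjusted p = 0.918, 0.697 and 0.0952). Npnt fell less than with shRNF185.1 (difference 0.57, adjusted p = 0.0337, up to 0.227). Tspan8 fell more (difference -0.743, adjusted p = 0.0155, up to 0.0973).

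The enzyme genes Akr1c18 and Vnn1 were also among the strongest falls. Akr1c18, whose enzyme inactivates progesterone, went from 6.37, 10 and 19.8 to 0.902, 1.56 and 2.14 CPM (log2 -2.87 ± 0.27, adjusted p = 3.73e-07). Vnn1, the pantetheinase vanin, went from 6.53, 23.3 and 40.1 to 1.52, 3.07 and 5.36 CPM (log2 -2.81 ± 0.4, adjusted p = 3.94e-05), and Als2cl from 10.5, 13.6 and 17.2 to 2.35, 3.05 and 4.89 CPM (log2 -2.07 ± 0.22, adjusted p = 1.34e-06). In all 3 the knockdown and control ranges were separate. Vnn1 and Als2cl were not called against shRNF185.1 (differences -0.642 and -0.597, adjusted p = 0.372 and 0.0864).

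To find what distinguished this hairpin, shRNF185.3 was tested directly against shRNF185.1. That contrast called 2098 genes (14.7%), 1105 higher with shRNF185.3 (7.72%) and 993 lower (6.94%). Genes called in the same direction against both control and shRNF185.1 are referred to as set apart. Both tests use the same shRNF185.3 libraries, so they are not independent. There were 887 set-apart genes (6.2% of those tested), 472 higher (3.3%) and 415 lower (2.9%). A range with no overlap with either other group was found in 234 genes above (1.64%) and 163 genes below (1.14%). The set-apart share was between 4.77% and 8.38% on each of the 20 chromosomes examined. Of the 887, 218 were set apart under each of 14 alternative analyses, 135 higher and 83 lower. Set-apart genes given with their values below belong to these 218, unless a higher adjusted p from an alternative stands beside them; those listed by name alone may not.

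In 226 of the 472 set-apart genes that were higher, all 6 shRNF185.3 libraries lay above both other groups. Alpl reached 7.38, 7.55 and 8.55 CPM with shRNF185.1, against the 18.6, 21.9 and 26.4 CPM with shRNF185.3 (log2 difference 1.51, adjusted p = 2.19e-07). Kcnh2, which encodes the hERG potassium channel, stood at 4.07, 4.3 and 4.46 CPM in control, 5.19, 6.07 and 6.8 CPM with shRNF185.1 and 12.8, 15.1 and 18.2 CPM with shRNF185.3 (log2 1.84 ± 0.08 against control, adjusted p = 2.46e-11, and 1.34 against shRNF185.1, adjusted p = 2.37e-09). Ldb3, a gene of the muscle Z-disc, stood at 0.981, 1.3 and 1.63 CPM in control, 1.87, 1.99 and 2.73 CPM with shRNF185.1 and 4.72, 5.27 and 6.18 CPM with shRNF185.3 (log2 2.06 ± 0.14 against control and 1.32 against shRNF185.1, adjusted p = 5.37e-09 and 1.17e-06). In these genes the shRNF185.1 libraries lay above all controls and below all shRNF185.3 libraries. Nlrp2, a NOD-like receptor gene, stood at 2.4, 3.6 and 4.42 CPM in control, 4.63, 6.29 and 7.48 CPM with shRNF185.1 and 12.3, 15.4 and 16.5 CPM with shRNF185.3 (log2 2.07 ± 0.14 against control and 1.29 against shRNF185.1, adjusted p = 1.03e-08 and 3.26e-06), with the same order.

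In other set-apart genes shRNF185.1 lay within or near the control range. Mmp9, the secreted gelatinase that cuts type IV collagen, stood at 8.81, 11.6 and 13.5 CPM in control, 7.17, 9.58 and 13.1 CPM with shRNF185.1 and 24, 26.4 and 35.4 CPM with shRNF185.3 (log2 1.32 ± 0.14 against control and 1.52 against shRNF185.1, adjusted p = 1.6e-06 and 7.12e-07). Notch4, a Notch family receptor, stood at 0.722, 0.989 and 1.59 CPM in control, 1.09, 1.28 and 1.89 CPM with shRNF185.1 and 2.94, 3.55 and 4.11 CPM with shRNF185.3 (log2 1.72 ± 0.17 against control and 1.38 against shRNF185.1, adjusted p = 7.87e-07 and 1.8e-05). For both genes only the shRNF185.3 libraries left the control range in full. Of the remaining Notch receptors, looked up after these values were seen, Notch3 stood at 0.0348, 0.186 and 0.397 CPM in control, 0.0355, 0.517 and 1.56 CPM with shRNF185.1 and 2.36, 2.83 and 3.79 CPM with shRNF185.3 and was set apart too (log2 3.62 ± 0.46 against control and 2.12 against shRNF185.1, adjusted p = 9.82e-06 and 0.00126). Notch1 changed by -0.35 ± 0.1 against control (adjusted p = 0.0155) and Notch2 by 0.04 ± 0.07 (adjusted p = 0.734), and neither passed against shRNF185.1.

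Pltp, the phospholipid transfer protein of lipoproteins, stood at 8.79, 10.1 and 10.9 CPM in control, 10.6, 12.1 and 16.2 CPM with shRNF185.1 and 27, 30.5 and 35.6 CPM with shRNF185.3 (log2 1.63 ± 0.09 against control and 1.3 against shRNF185.1, adjusted p = 4.75e-10 and 1.6e-08). Cryab, a small heat shock protein gene, stood at 3.1, 5.27 and 5.55 CPM in control, 4.78, 6.85 and 8.26 CPM with shRNF185.1 and 14.1, 14.9 and 18.4 CPM with shRNF185.3 (log2 1.72 ± 0.14 against control and 1.23 against shRNF185.1, adjusted p = 7.05e-08 and 5.48e-06). Of the 75-base windows of their transcripts, 11.3% in Pltp and 17.1% in Cryab also occur in a neighbouring gene's transcripts, Ctsa and Hspb2 respectively, so part of their counts depends on how reads were assigned. The same measure was 98.3% for Prnd, which shares its transcript with the gene Prn, and its values of 0.654, 1.4 and 1.64 CPM in control, 0.655, 1.09 and 1.67 CPM with shRNF185.1 and 2.3, 3.62 and 6.37 CPM with shRNF185.3 cannot be assigned to it with certainty (log2 1.6 ± 0.26 against control and 1.86 against shRNF185.1, adjusted p = 0.000122 and 7.32e-05).

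**Figure D2:**
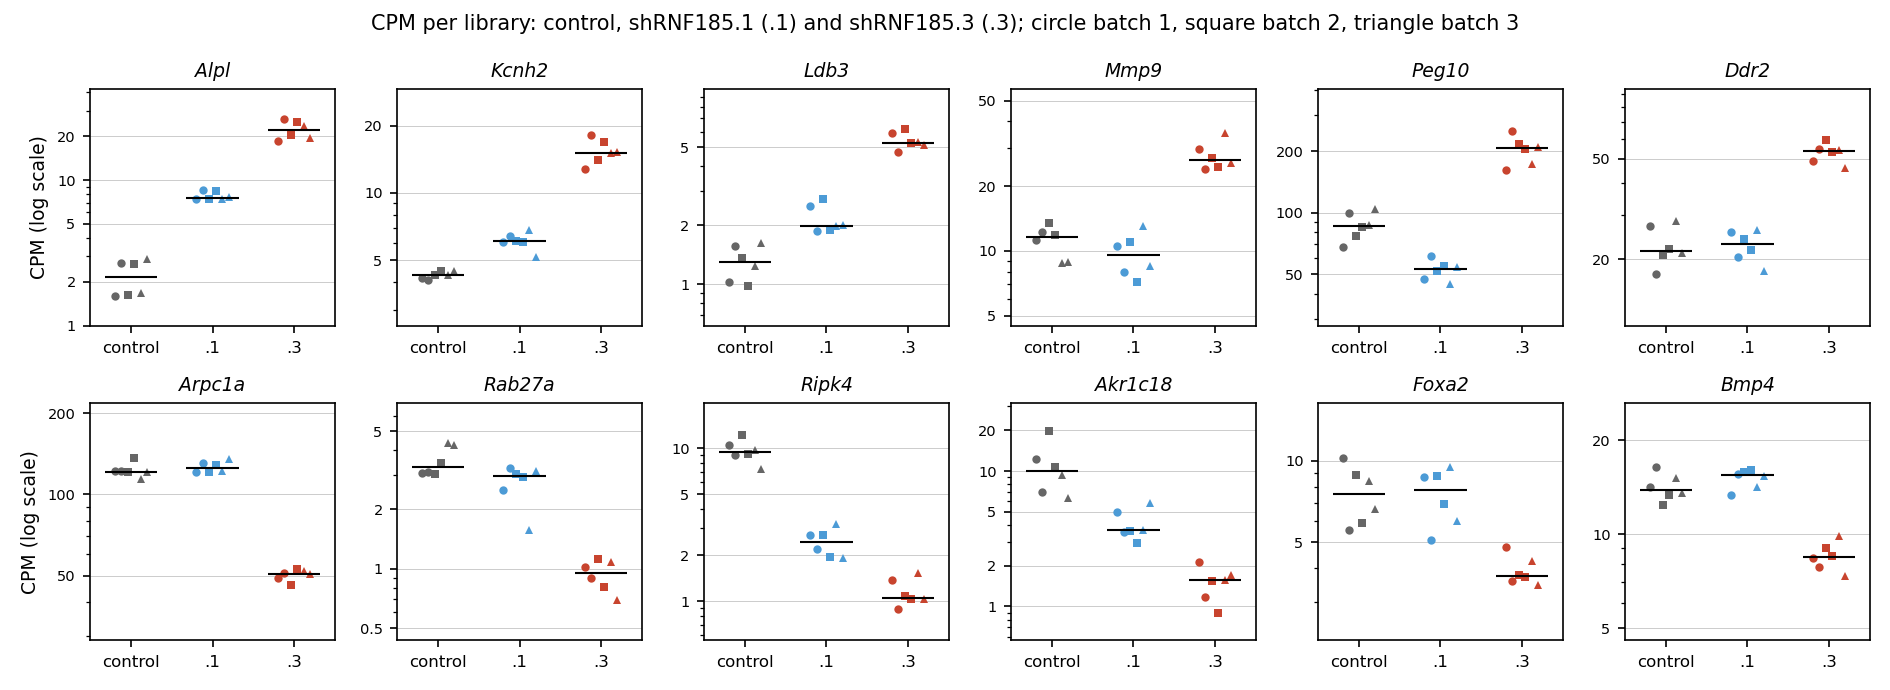
CPM on log axes in each of the 18 libraries for 12 set-apart genes, in control (grey), shRNF185.1 (blue) and shRNF185.3 (red). Bars are group medians and symbols mark the batch; in Arpc1a the control and shRNF185.1 libraries lie between 114 and 136 CPM and the shRNF185.3 libraries between 46.2 and 52.8 CPM.

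Arpc1a had the smallest adjusted p against shRNF185.1 of the 415 lower set-apart genes. It encodes a subunit of the Arp2/3 complex, which nucleates branched actin filaments. It stood at 114, 121 and 136 CPM in control, 121, 125 and 135 CPM with shRNF185.1 and 46.2, 50.9 and 52.8 CPM with shRNF185.3 (log2 -1.28 ± 0.05 against control and -1.32 against shRNF185.1, adjusted p = 1.17e-12 and 4.59e-13). No shRNF185.3 library overlapped either other group. The 8 other subunit genes of the complex, looked up after this value was seen, changed by -0.235 to 0.16 against control and by -0.093 to 0.0993 against shRNF185.1. Arpc3, Arpc4 and Arpc5 were called lower against control and none of the 8 was set apart. Arpc1b, the adjacent paralogue, was at 626, 695 and 777 CPM in control and 633, 695 and 733 CPM with shRNF185.3 (log2 -0.02 ± 0.05, adjusted p = 0.823).

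Golga7 and Zbed3, chosen after their values were seen, had a similar profile. Golga7, whose product works with a palmitoyltransferase at the Golgi, stood at 84.4, 90.3 and 107 CPM in control, 79.5, 89.9 and 91.6 CPM with shRNF185.1 and 47.4, 49.7 and 54.2 CPM with shRNF185.3 (log2 -0.86 ± 0.06 against control and -0.81 against shRNF185.1, adjusted p = 3.94e-09 and 1.4e-08). Zbed3, a zinc finger gene, stood at 20.5, 22.3 and 24.2 CPM in control, 24.5, 26.8 and 29.7 CPM with shRNF185.1 and 12.7, 13.4 and 13.8 CPM with shRNF185.3 (log2 -0.74 ± 0.06 against control and -1.03 against shRNF185.1, adjusted p = 2.41e-08 and 6.51e-10), and with shRNF185.1 it was higher than control by 0.28 (adjusted p = 0.000619). Whether the transcripts of Arpc1a, Golga7 or Zbed3 pair with the shRNF185.3 sequence was not tested.

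Rab27a, a small GTPase that brings secretory vesicles to the membrane, stood at 3.02, 3.28 and 4.33 CPM in control, 1.58, 2.96 and 3.24 CPM with shRNF185.1 and 0.694, 0.959 and 1.12 CPM with shRNF185.3 (log2 -1.92 ± 0.17 against control and -1.55 against shRNF185.1, adjusted p = 1.99e-07 and 6.1e-06). Ripk4 was at 1.92, 2.46 and 3.2 CPM with shRNF185.1, and the shRNF185.3 libraries differed from them by -1.08 (adjusted p = 0.000184). Akr1c18 was at 2.95, 3.64 and 5.85 CPM with shRNF185.1, a difference of -1.45 (adjusted p = 0.0013). The shRNF185.3 libraries were the lowest of the 18 in all 3 genes.

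Ppm1e, a protein phosphatase gene, stood at 1.81, 2.99 and 4.14 CPM in control, 2.51, 2.94 and 3.37 CPM with shRNF185.1 and 1, 1.34 and 1.7 CPM with shRNF185.3 (log2 -1.14 ± 0.17 against control and -1.11 against shRNF185.1, adjusted p = 6.86e-05 and 0.000208). Sh3rf2, which encodes a protein with SH3 and RING domains, stood at 3.43, 4.97 and 6.74 CPM in control, 3.74, 5.07 and 5.95 CPM with shRNF185.1 and 1.57, 2.23 and 3.44 CPM with shRNF185.3 (log2 -1.09 ± 0.19 against control and -1.06 against shRNF185.1, adjusted p = 0.00033 and 0.000982). Fam84a stood at 4.67, 7.5 and 12.6 CPM in control, 5, 7.59 and 10.8 CPM with shRNF185.1 and 2.4, 3.38 and 4.32 CPM with shRNF185.3 (log2 -1.12 ± 0.24 against control and -1.16 against shRNF185.1, adjusted p = 0.00163 and 0.00235). In these genes shRNF185.1 lay within or close to the control range. All shRNF185.3 libraries were below both other groups, except that the highest one of Sh3rf2 reached the lowest control. Without batch 2 the change of Fam84a against control was -0.71 (adjusted p = 0.0354). Mfsd6, a transporter-like gene, stood at 1.35, 2.05 and 2.52 CPM in control, 2.21, 2.62 and 2.71 CPM with shRNF185.1 and 0.89, 0.945 and 1.14 CPM with shRNF185.3, with shRNF185.1 above control by 0.41 (adjusted p = 0.0378) and shRNF185.3 below both (log2 -0.97 ± 0.15 against control and -1.37 against shRNF185.1, adjusted p = 0.000107 and 4.52e-06). Claudin genes of tight junctions were lower as well. Cldn3 stood at 1.76, 2.37 and 4.71 CPM in control, 1.63, 2.43 and 3.86 CPM with shRNF185.1 and 0.777, 0.854 and 1.5 CPM with shRNF185.3 (log2 -1.41 ± 0.27 against control and -1.44 against shRNF185.1, adjusted p = 0.000745 and 0.00131, up to 0.0529 against shRNF185.1 without batch 1). Cldn2 stood at 3.98, 9.43 and 27.1 CPM in control, 5.16, 12.3 and 21.1 CPM with shRNF185.1 and 3.5, 4.04 and 8.06 CPM with shRNF185.3, with overlapping ranges (log2 -1.26 ± 0.4 against control and -1.42 against shRNF185.1, adjusted p = 0.0245 and 0.0213); against control its change was -0.67 (adjusted p = 0.224) without batch 2, and against shRNF185.1 the adjusted p was up to 0.193.

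Gene lists put these genes in context; each is described by how many of its tested members were called against control, next to the 14.2% called higher and 13.1% called lower over all genes tested. The plot of list members called shows all 37 pathway lists, of which 28 held a set-apart gene. The lists had 6 to 70 tested members, and 6.2% of all genes tested were set apart. Holding a set-apart gene is thus no excess by itself. With a batch left out fewer genes were called against control in all. They numbered 2120 of 14275 tested without batch 1, 3849 of 14352 without batch 2 and 2501 of 14405 without batch 3. Of these calls 59.7%, 51.9% and 53.7% were higher. List counts with a batch left out are to be read beside these totals, not beside 14.2% and 13.1%.

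**Figure D3:**
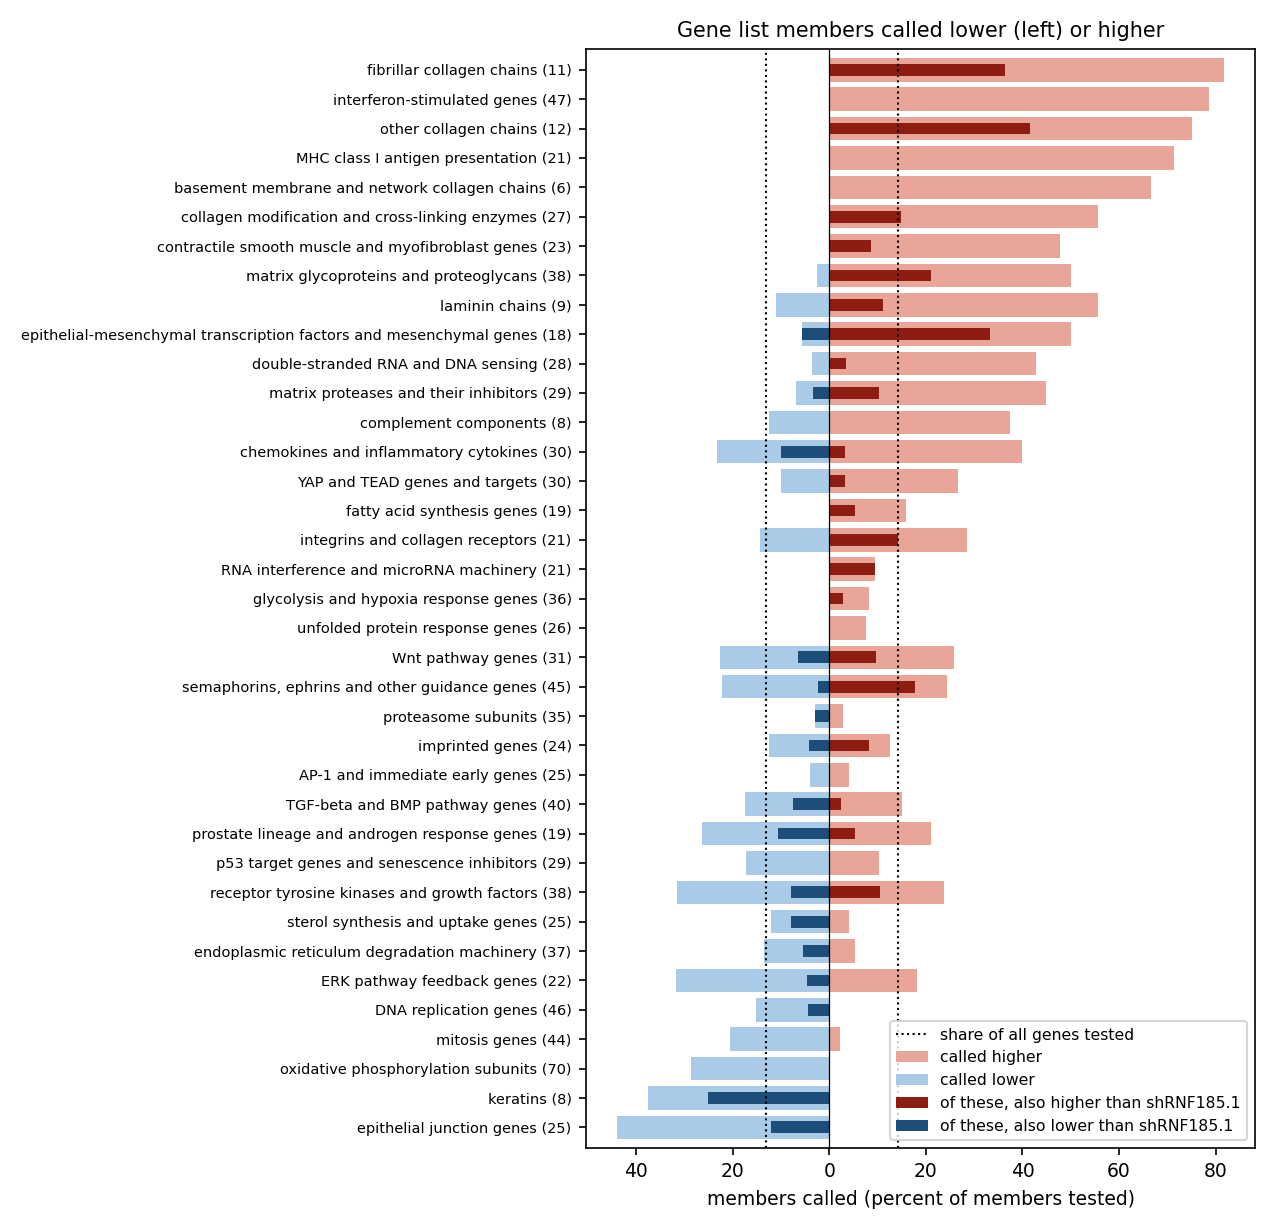
Share of tested members of each of 37 gene lists called higher (to the right) or lower (to the left) with shRNF185.3 against control, with the number tested in brackets and the shares over all genes as dotted lines. Dark inner bars are set-apart members; fibrillar collagens reach 81.8% higher and interferon-stimulated genes 78.7% higher, the latter with no set-apart member.

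Of 11 fibrillar collagen chains, 9 were called higher and none lower (median log2 1.54), and 2 did not pass. Col1a1, a chain of type I collagen, went from 46.6, 83.9 and 109 CPM in control to 220, 379 and 546 CPM (log2 2.19 ± 0.3, adjusted p = 1.9e-05), with 120, 160 and 327 CPM under shRNF185.1. The difference between hairpins in Col1a1 was 0.9 (adjusted p = 0.0379, up to 0.283 without batch 2). Col1a2, the partner chain of type I collagen, was chosen after its values were seen: 339, 369 and 425 CPM in control, 190, 245 and 327 CPM with shRNF185.1 and 438, 556 and 635 CPM with shRNF185.3. It rose with shRNF185.3 by 0.55 ± 0.13 (adjusted p = 0.00379), changed with shRNF185.1 by -0.56 (adjusted p = 0.00306), and differed between the hairpins by 1.1 (adjusted p = 9.65e-06). Col2a1 and Col11a2 were also set apart. Col11a1 rose from 0.831, 1.2 and 1.56 to 2.78, 3.17 and 6.63 CPM (log2 1.6 ± 0.23, adjusted p = 3.27e-05) and was not called between hairpins (-0.47, adjusted p = 0.15).

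Of 6 tested chains of basement membrane and network collagens, 4 rose (2 without batch 1 or batch 3) and none was set apart (median 0.26, which was 0.42 without batch 2 and 0.11 without batch 3); Col8a1 went from 2.48, 3.33 and 5.21 to 5.28, 9.05 and 11.5 CPM (log2 1.3 ± 0.22, adjusted p = 0.000197). Of 12 other collagen chains 9 rose (median 0.75) and 5 were set apart, although only 5 of the 12 were called higher without batch 1. Col6a3, a chain of the microfibril-forming type VI collagen, stood at 287, 383 and 408 CPM in control, 377, 399 and 541 CPM with shRNF185.1 and 606, 654 and 759 CPM with shRNF185.3 (log2 0.9 ± 0.1 against control and 0.65 against shRNF185.1, adjusted p = 2.98e-06 and 0.000224). Every shRNF185.3 library of Col6a3 lay above all 12 others. Col12a1, a chain that decorates fibrils, rose from 92.1, 112 and 124 to 182, 244 and 258 CPM (log2 1.09 ± 0.1, adjusted p = 2.7e-07), and its difference between hairpins was 0.27 (adjusted p = 0.0831).

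Of 27 enzymes that process collagen, 15 were called higher and none lower (median 0.34). Without batch 3, 7 were higher and the median was 0.152, and 1 was lower without batch 1 or batch 3. With shRNF185.1 against control, 15 were higher and 1 lower (median 0.35). Adamts3, which removes the amino-terminal propeptide of procollagen, stood at 4.27, 6.78 and 7.52 CPM in control, 6.49, 8.4 and 14.2 CPM with shRNF185.1 and 14.7, 17.9 and 20.8 CPM with shRNF185.3 (log2 1.48 ± 0.16 against control and 0.98 against shRNF185.1, adjusted p = 2.07e-06 and 0.000302). Adamts14, an enzyme of the same activity, rose from 6.11, 10.8 and 12.6 to 20.9, 23.3 and 29.8 CPM (log2 1.27 ± 0.17, adjusted p = 1.86e-05) and differed between hairpins by 0.53 (adjusted p = 0.0401, up to 0.172). Crtap and P4ha3, which act in proline hydroxylation of collagen, were the other set-apart members.

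Of 38 matrix glycoproteins and proteoglycans, 19 were higher and only Npnt was lower (2 lower without batch 3; median 0.44), with 8 set apart, all higher. Fmod, which encodes the collagen-binding proteoglycan fibromodulin, stood at 2.1, 2.9 and 3.71 CPM in control, 3.99, 5.51 and 9.46 CPM with shRNF185.1 and 8.02, 12.2 and 15.9 CPM with shRNF185.3 (log2 2.03 ± 0.22 against control and 1.06 against shRNF185.1, adjusted p = 1.32e-06 and 0.00154, up to 0.0712 between hairpins). Ogn, the related osteoglycin, rose from 0.282, 0.523 and 1.25 to 1.29, 3.59 and 5.25 CPM (log2 2.37 ± 0.43, adjusted p = 0.000387). Of 9 laminin chains 5 were higher (3 without batch 3) and 1 lower (none without batch 1). Lama4 rose from 13.1, 16.1 and 19.9 to 41.8, 46 and 62 CPM (log2 1.59 ± 0.14, adjusted p = 1.26e-07). Lamc1 rose from 260, 274 and 292 to 380, 395 and 403 CPM (log2 0.52 ± 0.04, adjusted p = 1.15e-08), less than with shRNF185.1, where it reached 439, 459 and 480 CPM (difference -0.22, adjusted p = 0.000425, up to 0.0564 without batch 1).

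Among 21 integrins and collagen receptors 6 were higher (28.6%, against 14.2% of all genes) and 3 lower (14.3%, against 13.1%). Without batch 1, 3 were higher. Ddr2, a receptor tyrosine kinase that binds fibrillar collagen, was set apart. It stood at 17.4, 21.6 and 28.4 CPM in control, 17.9, 22.9 and 26.1 CPM with shRNF185.1 and 46, 53.8 and 59.1 CPM with shRNF185.3 (log2 1.21 ± 0.11 against control and 1.23 against shRNF185.1, adjusted p = 2.09e-07 and 4e-07), and shRNF185.1 differed from control by -0.01 (adjusted p = 0.955). The integrin chains Itga5 and Itgav were the other set-apart members. Mrc2, an endocytic receptor for collagen, rose from 8.74, 11.4 and 17.2 to 19.7, 23.2 and 31.2 CPM (log2 0.97 ± 0.17, adjusted p = 0.000381) and was not called between hairpins (-0.13, adjusted p = 0.737).

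Matrix proteases and inhibitors were higher in 13 of 29 and lower in 2 (6.9%, against 13.1% of all genes, and none lower without batch 1 or batch 2). Adamts5, which cuts aggrecan, rose from 0.701, 1.08 and 1.67 to 2.47, 4.19 and 5.99 CPM (log2 1.87 ± 0.33, adjusted p = 0.000272). Mmp19 rose from 5.77, 8.16 and 9.2 to 17.6, 23 and 35.8 CPM (log2 1.61 ± 0.2, adjusted p = 5.97e-06), though 24.1% of its transcript windows also lie in another gene's transcripts. Mmp9, Adamts4 and Adam15 were set apart upward. Mmp3, which encodes stromelysin, was the set-apart fall, from 64.3, 115 and 245 CPM in control and 74.4, 124 and 151 CPM with shRNF185.1 to 47.1, 59.8 and 93.7 CPM, with overlapping ranges (log2 -0.92 ± 0.27 against control and -0.89 against shRNF185.1, adjusted p = 0.0154 and 0.0314). Against control its change was -0.48 (adjusted p = 0.155) without batch 2, and against shRNF185.1 the adjusted p was up to 0.262.

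Of 25 epithelial junction genes 11 were lower and none higher (median -0.45), with 1 higher without batch 2, and 14 did not pass. In this list 3 were set apart, Cldn4 and Cldn3 among them. With shRNF185.1 against control, 10 were lower and 1 higher (median -0.277). Of 8 keratins 3 were lower and 5 did not pass. Krt18, a keratin of simple epithelia, stood at 325, 354 and 396 CPM in control, 161, 180 and 190 CPM with shRNF185.1 and 144, 150 and 152 CPM with shRNF185.3 (log2 -1.25 ± 0.05 against control and -0.25 against shRNF185.1, adjusted p = 1.53e-11 and 0.00331, up to 0.106 between hairpins). The shRNF185.3 libraries of Krt18 were the lowest of the 18. Of 18 epithelial-mesenchymal transcription factors and mesenchymal genes, 9 were higher and 1 lower (median 0.33; 5 higher without batch 3 and none lower without batch 1 or batch 3), 8 did not pass, and 7 were set apart. Snai2, a repressor of epithelial genes, rose from 7.66, 9.43 and 9.8 to 15.7, 22 and 23.7 CPM (log2 1.23 ± 0.09, adjusted p = 1.81e-08) and differed from shRNF185.1 by 0.35 (adjusted p = 0.0102, up to 0.159). Twist1 stood at 1.17, 1.8 and 2.62 CPM in control, 1.06, 1.53 and 2.66 CPM with shRNF185.1 and 1.99, 3.2 and 3.97 CPM with shRNF185.3 (log2 0.75 ± 0.22 against control and 0.86 against shRNF185.1, adjusted p = 0.0146 and 0.0116, up to 0.191 and 0.238). Twist2 was the lower gene (-0.27 ± 0.09, adjusted p = 0.0269, up to 0.205), but 56.9% of its transcript windows occur in another gene's transcripts. The receptors of platelet-derived growth factor, Pdgfra and Pdgfrb, were set apart upward. Beside these lists, the summed level of 8 luminal prostate markers, Krt8 and Krt18 among them, was 1890 to 2150 CPM in control and 1350 to 1440 CPM with shRNF185.3. Its part in the result was not tested.

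Contractile genes of smooth muscle and myofibroblasts were higher in 11 of 23 and lower in none (median 0.196; 5 higher without batch 1 and 1 lower without batch 3). Myl9, a regulatory light chain of myosin, rose from 0.724, 1.14 and 2.23 to 3.2, 4.84 and 7.65 CPM (log2 1.99 ± 0.24, adjusted p = 6.43e-06). Mylk, the kinase of that light chain, stood at 13, 18 and 21.7 CPM in control, 15.8, 17.3 and 26.8 CPM with shRNF185.1 and 24.5, 28.1 and 34.3 CPM with shRNF185.3 (log2 0.69 ± 0.14 against control and 0.58 against shRNF185.1, adjusted p = 0.000903 and 0.00706, up to 0.106 between hairpins). Lmod1 was the other set-apart member. Beside the collagen and contractile lists, the summed level of 8 stromal fibroblast markers was 1150 to 1710 CPM in control and 2410 to 3900 CPM with shRNF185.3. Col3a1 alone made up 388 to 745 and 1170 to 2080 CPM of it. Dcn, the decorin gene, stood at 11.1 to 32 and 9.8 to 25.2 CPM, and Lum and Thy1 stayed under 1 CPM. The 6 smooth muscle markers summed to between 6.7 and 48.9 CPM in control and between 29 and 122 CPM with shRNF185.3, of which Acta2 made up 5.84 to 44.2 and 24.2 to 106 CPM, with Myh11, Des and Myocd under 1 CPM. Several of these markers are members of the lists, and the part of other cells in the result was not tested.

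**Figure D4:**
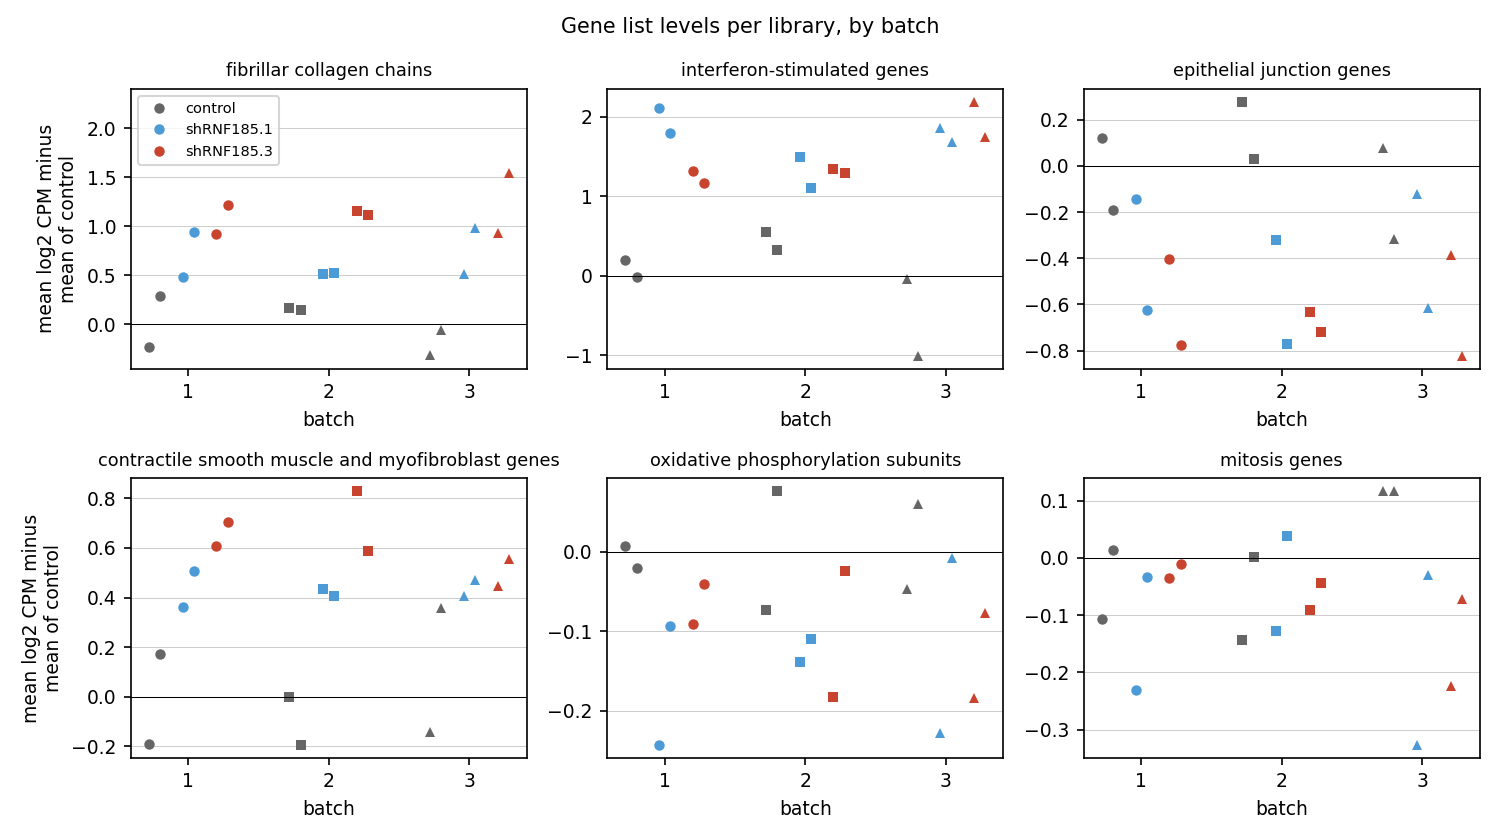
Mean log2 CPM of 6 gene lists minus the control mean (vertical axis) in each library, by batch (horizontal axis), for control (grey), shRNF185.1 (blue) and shRNF185.3 (red). Fibrillar collagens are above control in every batch, and the interferon-stimulated genes differ from control by 1.15, 0.875 and 2.49 in batches 1, 2 and 3.

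Interferon-stimulated genes, which cells switch on after type I interferon signalling or on sensing viral nucleic acid, rose with shRNF185.3, but none was set apart. Of 47 tested, 37 were higher and none lower (median 1.72). Against shRNF185.1, 1 was higher and 2 were lower (median -0.14). With shRNF185.1, which shares the control libraries, 40 were higher (median 1.83). Isg15, the ubiquitin-like interferon-induced modifier, was chosen to show a sequence: 0.847, 2.11 and 5.49 CPM in control and 4.48, 8.99 and 24.4 CPM with shRNF185.3 (log2 2.39 ± 0.43, adjusted p = 0.000401). In Isg15 the ranges overlapped. Ifit3 was chosen likewise and went from 0.816, 3.01 and 3.81 to 8.61, 11 and 31.2 CPM (log2 2.41 ± 0.34, adjusted p = 3.14e-05), although 41.1% of its transcript windows are shared with Ifit3b. Without batch 3 the changes were 1.39 (adjusted p = 0.0324) in Isg15 and 1.57 (adjusted p = 9.86e-05) in Ifit3. The list's mean log2 level differed from control by 1.15, 0.875 and 2.49 in batches 1, 2 and 3. The lowest control library, replicate 6 of batch 3, was at -1.01 on this score and the others at -0.0458 to 0.555, while the shRNF185.3 libraries were at 1.17 to 2.19. Without batch 3, 27 members were higher and 1 lower.

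The interferon-stimulated response element, the site bound by the STAT and IRF complexes of this pathway, was searched as GAAA, any NN and GAAA again, without a gap, on both strands of RefSeq promoter windows of GRCm38.p6, which run from 250 bases before to 50 bases after a gene's start. A match was present in 18 of the 34 interferon-stimulated genes with a window (52.9%) and in 5 of 18 genes of MHC class I presentation (27.8%). It was present in 3.7% of the 10067 tested genes with a window, and in 3.44% of all 32851 promoters counted singly. The 250 bases before the start are shown for Isg15 (chr4:156200819-156201068, minus strand), Ifit3 (chr19:34583279-34583528, plus strand) and Bst2 (chr8:71537473-71537722, minus strand), the last because its change differed between batches. Each reads 5′ to 3′ along the gene, with matches in capitals; in Ifit3 the matches lie on the opposite strand, and adjacent matches in Isg15 and Bst2 overlap.
Isg15: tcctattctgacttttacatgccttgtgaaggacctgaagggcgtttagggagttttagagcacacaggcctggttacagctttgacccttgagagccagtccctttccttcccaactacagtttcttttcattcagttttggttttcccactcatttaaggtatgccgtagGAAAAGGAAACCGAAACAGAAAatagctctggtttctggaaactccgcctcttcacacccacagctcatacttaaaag
Ifit3: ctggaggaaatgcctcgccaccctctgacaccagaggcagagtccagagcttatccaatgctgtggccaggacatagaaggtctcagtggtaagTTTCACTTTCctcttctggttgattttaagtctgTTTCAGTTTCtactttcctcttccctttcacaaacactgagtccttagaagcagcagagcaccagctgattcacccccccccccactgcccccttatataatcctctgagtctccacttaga
Bst2: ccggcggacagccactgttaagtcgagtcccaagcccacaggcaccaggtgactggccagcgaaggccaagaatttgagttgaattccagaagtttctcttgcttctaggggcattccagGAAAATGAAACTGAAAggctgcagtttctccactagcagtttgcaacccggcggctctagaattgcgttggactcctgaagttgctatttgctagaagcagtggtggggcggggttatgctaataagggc
The matches start 78, 72 and 66 bases before the start in Isg15, 156 and 122 before it in Ifit3, and 130 and 124 before it in Bst2. A match describes these letters and does not show a bound site.

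The CArG box, the element of serum response factor in contractile genes, was found in 5 of 21 contractile genes with a window (23.8%). It was found in 1.59% of the 10067 tested genes with a window, and in 1.63% of all promoters counted singly. Of these 5, Filip1l and Myl9 were called higher. Myl9 is shown because its values are given above (chr2:156775214-156775463, plus strand), with the match, which starts 161 bases before the gene, in capitals.
Myl9: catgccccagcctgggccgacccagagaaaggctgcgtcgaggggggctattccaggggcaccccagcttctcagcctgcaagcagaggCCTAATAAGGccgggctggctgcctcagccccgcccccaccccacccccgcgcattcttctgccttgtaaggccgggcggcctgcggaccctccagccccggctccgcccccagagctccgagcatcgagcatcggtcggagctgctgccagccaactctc

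Of 21 genes of MHC class I presentation, 15 were higher and none lower (median 0.82, and 0.386 without batch 3), with none set apart. The list's mean log2 level differed from control by 0.565, 0.656 and 2 in batches 1, 2 and 3. H2-Q4, a class I heavy chain gene, went from 0.69, 2.16 and 3.32 to 3.48, 7.96 and 21.6 CPM (log2 2.36 ± 0.44, adjusted p = 0.000487). Without batch 3 its change was 1.35 (adjusted p = 0.0108), and 21.3% of its transcript windows are shared with other genes. Of 28 sensing genes 12 were higher (7 without batch 3), 15 did not pass, and 1, Irf3, was lower (none without batch 1 or batch 2). Dhx58, a RIG-I-like receptor, rose from 1.88, 4.19 and 7.06 to 12, 14.5 and 24 CPM (log2 1.84 ± 0.29, adjusted p = 0.000117). Irf1, an interferon-regulatory transcription factor, was the set-apart member at 37, 44.6 and 50.2 CPM in control, 51.3, 52.7 and 60.4 CPM with shRNF185.1 and 60.2, 67.3 and 76.2 CPM with shRNF185.3 (log2 0.62 ± 0.08 against control and 0.32 against shRNF185.1, adjusted p = 7.99e-06 and 0.00794, up to 0.103 between hairpins).

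Of 21 genes of the small RNA machinery, which also carries the hairpins, 2 were higher (9.52%, against 14.2% of all genes) and none lower. Without batch 1 or batch 3, 1 was higher, and without batch 2, 1 was lower. Both higher genes were set apart (9.52%, against 6.2% of all genes). Tnrc6a, which encodes a scaffold of the microRNA silencing complex, stood at 86.2, 95.3 and 106 CPM in control, 79, 90.5 and 93.5 CPM with shRNF185.1 and 132, 140 and 153 CPM with shRNF185.3 (log2 0.56 ± 0.06 against control and 0.67 against shRNF185.1, adjusted p = 9.68e-07 and 2.18e-07), without overlap. The other was Prkra, with a change of 0.19 ± 0.07 against control (adjusted p = 0.0471, up to 0.376 without batch 3).

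Chemokines and cytokines went both ways, 12 of 30 higher and 7 lower (3 lower without batch 1). Cxcl10, an interferon-induced chemokine, rose from 4.55, 7.77 and 12.6 to 12.8, 18.9 and 30 CPM (log2 1.3 ± 0.24, adjusted p = 0.000391), and by 0.78 (adjusted p = 0.0284) without batch 3. Il1rl1, the interleukin 33 receptor, separated the hairpins: 25.5, 32 and 52.8 CPM in control, 43, 61.3 and 82.6 CPM with shRNF185.1 and 16, 19.2 and 25.7 CPM with shRNF185.3. Its log2 difference was -0.79 ± 0.18 from control (adjusted p = 0.00318, up to 0.0779 without batch 1) and -1.61 from shRNF185.1 (adjusted p = 6.1e-06), overlapping control but not shRNF185.1. Cxcl16, a membrane-bound chemokine, stood at 26.4, 37.4 and 48.3 CPM in control, 35.8, 45.8 and 49.5 CPM with shRNF185.1 and 20.7, 22.5 and 34.6 CPM with shRNF185.3 (log2 -0.59 ± 0.15 against control and -0.8 against shRNF185.1, adjusted p = 0.00739 and 0.0014, up to 0.15 against control), and 18.2% of its windows are shared with Zmynd15. Tslp fell and Cxcl12 rose as the remaining set-apart members. Of 8 complement genes 3 were higher and 1, Clu, was lower: clusterin fell from 124, 225 and 322 to 52.2, 67.4 and 108 CPM (log2 -1.59 ± 0.22, adjusted p = 2.8e-05).

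Guidance and growth factor genes went both ways. Of 45 guidance genes 11 were higher and 10 lower against control (6 and 5 higher without batches 1 and 3, and 4 and 6 lower without batches 1 and 2), and 9 were set apart (20%, against 6.2% of all genes). Plxnd1, a semaphorin receptor, stood at 49.6, 56.8 and 61.3 CPM in control, 90.5, 91.8 and 102 CPM with shRNF185.1 and 117, 136 and 146 CPM with shRNF185.3 (log2 1.25 ± 0.06 against control and 0.53 against shRNF185.1, adjusted p = 6.98e-11 and 5.76e-06), and the 3 groups did not overlap. Sema3c, a secreted semaphorin, rose from 114, 174 and 226 to 402, 465 and 606 CPM (log2 1.53 ± 0.13, adjusted p = 1.16e-07) with no call between hairpins (-0.09, adjusted p = 0.759). Of 38 receptor tyrosine kinases and growth factors 9 were higher and 12 lower, with 7 set apart. Pdgfb, which encodes the B chain of platelet-derived growth factor, fell from 25.8, 35.2 and 36.2 to 7, 11.2 and 13.3 CPM (log2 -1.64 ± 0.16, adjusted p = 4.81e-07), less than with shRNF185.1 at 4.37, 5.51 and 8.55 CPM (difference 0.85, adjusted p = 0.00162, up to 0.0564). Igf1, insulin-like growth factor, rose from 6.21, 6.99 and 7.81 to 13.2, 15.8 and 26.1 CPM (log2 1.27 ± 0.16, adjusted p = 1.12e-05). Igfbp7, a secreted binding protein of that family, stood at 5.26, 11.5 and 14.1 CPM in control, 13, 15.2 and 26 CPM with shRNF185.1 and 26.1, 30.9 and 36.3 CPM with shRNF185.3 (log2 1.57 ± 0.2 against control and 0.83 against shRNF185.1, adjusted p = 1.05e-05 and 0.00663, up to 0.124 between hairpins).

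TGF-beta and BMP genes were higher in 6 of 40 (15%, against 14.2% of all genes). They were lower in 7 (17.5%, against 13.1%), and in 4 without batch 1. Bmp4, a bone morphogenetic protein ligand, stood at 12.4, 13.8 and 16.4 CPM in control, 13.3, 15.4 and 16.1 CPM with shRNF185.1 and 7.32, 8.46 and 9.85 CPM with shRNF185.3 (log2 -0.73 ± 0.08 against control and -0.82 against shRNF185.1, adjusted p = 1.75e-06 and 8.5e-07). Id4, a BMP-responsive inhibitor of transcription factors, fell from 8.07, 9.23 and 11.2 to 2.91, 3.74 and 4.18 CPM (log2 -1.35 ± 0.12, adjusted p = 1.76e-07) and did not differ by call between hairpins (0.03, adjusted p = 0.944). Wnt pathway genes were higher in 8 of 31 and lower in 7 (3 higher without batch 3, and 4 lower without batch 1 or batch 2). Apcdd1, a membrane inhibitor of Wnt signalling, stood at 32.9, 36.2 and 43 CPM in control, 20.7, 22.6 and 24.4 CPM with shRNF185.1 and 13.8, 14.4 and 16.6 CPM with shRNF185.3 (log2 -1.33 ± 0.07 against control and -0.6 against shRNF185.1, adjusted p = 1.19e-10 and 5.31e-06), and its 3 groups were separate.

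Feedback genes of the ERK pathway were higher in 4 of 22 and lower in 7 (1 higher without batch 1 or batch 3, and 4 lower without batch 1). Dusp10, a phosphatase of stress-activated kinases, stood at 20.3, 22.9 and 30.1 CPM in control, 26.1, 28.9 and 30.2 CPM with shRNF185.1 and 15.1, 17.1 and 18.6 CPM with shRNF185.3 (log2 -0.49 ± 0.08 against control and -0.74 against shRNF185.1, adjusted p = 0.000228 and 5.93e-06), with shRNF185.1 above control by 0.25 (adjusted p = 0.029). Without batch 2 its change against control was -0.31 (adjusted p = 0.00391). Of 30 YAP and TEAD genes 8 were higher (26.7%, against 14.2% of all genes) and 3 lower (10%, against 13.1%). Dlc1, a GTPase-activating protein, stood at 3.85, 5.45 and 6.28 CPM in control, 3.54, 3.7 and 4.83 CPM with shRNF185.1 and 8.86, 10.2 and 10.5 CPM with shRNF185.3 (log2 0.91 ± 0.1 against control and 1.36 against shRNF185.1, adjusted p = 2.19e-06 and 4.55e-08), with shRNF185.1 at -0.45 from control (adjusted p = 0.00293). Vgll3, a TEAD cofactor, rose from 0.607, 1.25 and 2.2 to 2.2, 3.45 and 4.28 CPM (log2 1.28 ± 0.27, adjusted p = 0.00135), with shRNF185.1 at 3.59, 6.72 and 7.72 CPM. All 6 shRNF185.3 libraries of Vgll3 lay above the highest control, the lowest of them by less than the rounding of these values.

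Of 24 imprinted genes 3 were higher (12.5%, against 14.2% of all genes) and 3 lower (12.5%, against 13.1%). Without batches 2 and 3, 0 and 1 were lower. The called members included 4 neighbours on chromosome 6, with Peg10 and Sgce higher and Ppp1r9a and Asb4 lower. Peg10 (chromosome 6, bases 4747306 to 4760517, plus strand, GRCm38), a gene derived from a retrotransposon and expressed from the paternal allele, stood at 67.8, 86.3 and 104 CPM in control, 44.6, 52.8 and 61.1 CPM with shRNF185.1 and 161, 208 and 252 CPM with shRNF185.3. It rose by 1.23 ± 0.11 against control (adjusted p = 2.09e-07) and by 1.96 against shRNF185.1 (adjusted p = 1.43e-09), while shRNF185.1 differed from control by -0.73 (adjusted p = 7.49e-05). The 3 groups did not overlap. Sgce, the sarcoglycan gene that starts 0.099 kb away on the opposite strand and is also paternally expressed, stood at 21.3, 23.6 and 27 CPM in control, 26.2, 28.2 and 30.9 CPM with shRNF185.1 and 31.9, 36.8 and 44.3 CPM with shRNF185.3 (log2 0.68 ± 0.07 against control and 0.42 against shRNF185.1, adjusted p = 2e-06 and 0.000672). Of 11 genes tested within 1000 kb of Peg10, 8 were called against control and 3 were set apart. Over all genes tested these shares were 27.3% and 6.2%, and the window was centred on a gene picked as set apart. The third set-apart gene was Col1a2. Casd1, between Col1a2 and Sgce, changed by 0.03 ± 0.08 against control (adjusted p = 0.822), and Ppp1r9a, on the far side of Peg10, fell by 0.55 (adjusted p = 0.00567).

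**Figure D5:**
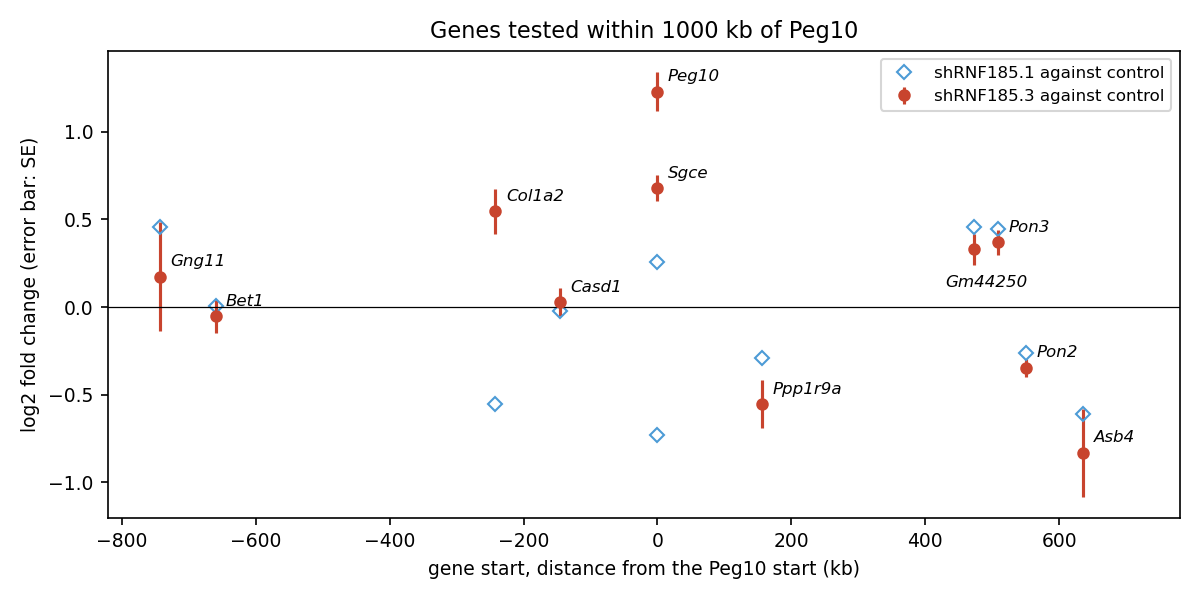
Log2 fold change against control (vertical axis) of the 11 genes tested within 1000 kb of Peg10, by the distance of their starts from that of Peg10 in kb (horizontal axis). Filled red points with standard error are shRNF185.3 and open blue diamonds are shRNF185.1; Peg10 and Col1a2 lie above 0 with shRNF185.3 and below 0 with shRNF185.1.

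In the pathway in which Rnf185 acts, 7 of 37 genes of endoplasmic reticulum degradation were called (18.9%, against 27.3% of all genes), 2 higher (1 without batch 1) and 5 lower (1, 2 and 3 lower without batches 1, 2 and 3), with 2 set apart downward. The median of 0.0077 became 0.000886, -0.0185 and -0.0301 on leaving out batches 1, 2 and 3. Herpud1, which organises the degradation complex and is induced by endoplasmic reticulum stress, rose from 44, 49.3 and 59.8 to 72.8, 81.5 and 89.8 CPM (log2 0.71 ± 0.08, adjusted p = 1.26e-06) without overlap. It rose with shRNF185.1 too (0.518, adjusted p = 4.05e-05) and was not called between hairpins (0.192, adjusted p = 0.0973). Of 26 unfolded protein response genes, 2 were higher (7.69%, against 14.2% of all genes), Sesn2 and Eif2ak3, and none lower. Without batches 1, 2 and 3, 1, 4 and 0 were higher, and the median of 0.022 was 0.0674, 0.115 and -0.0164. Of 25 sterol genes (16% called, against 27.3% of all genes) 1 was higher (none without batch 3) and 3 lower (1 lower without batch 1). Ebp, an isomerase of cholesterol synthesis, fell from 53.2, 56.3 and 65.7 to 39.5, 42.8 and 45.3 CPM (log2 -0.43 ± 0.05, adjusted p = 6.85e-06) and differed between hairpins by -0.22 (adjusted p = 0.00867, up to 0.0813).

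Of 46 DNA replication genes 7 were lower (15.2%, against 13.1% of all genes) and none higher. Without batch 1, 3 were lower, and without batch 3, 2 were, and the median of -0.14 was -0.0427 without batch 3. Cdc45, a helicase subunit, stood at 56.2, 64 and 72.7 CPM in control, 50.1, 63 and 69.4 CPM with shRNF185.1 and 42.5, 44.3 and 50.6 CPM with shRNF185.3 (log2 -0.49 ± 0.09 against control and -0.41 against shRNF185.1, adjusted p = 0.000333 and 0.00294, up to 0.0771 between hairpins). E2f2, a transcription factor of the S phase, stood at 20, 23.6 and 26 CPM in control, 19.9, 20.8 and 23.2 CPM with shRNF185.1 and 14.7, 15.5 and 17.3 CPM with shRNF185.3 (log2 -0.56 ± 0.07 against control and -0.41 against shRNF185.1, adjusted p = 4.33e-06 and 0.00027). Of 44 mitosis genes 9 were lower (20.5%) and 1, Ttk, higher (median -0.086; none higher without batch 1 or batch 2). Without batches 1, 2 and 3, 2, 5 and 1 were lower, and without batch 3 the median was 0.0321. Of 70 subunits of oxidative phosphorylation 20 were lower (28.6%) and none higher (median -0.12), with 6 lower without batch 1 and 4 without batch 3. None was set apart. With shRNF185.1 against control, 31 of these subunits and 12 of the mitosis genes were lower (medians -0.145 and -0.116). Of 36 glycolysis and hypoxia genes 3 were higher (8.33%, against 14.2% of all genes) and none lower. However, 13 were higher without batch 2 and 1 without batch 3. Their median of 0.16 was 0.504 without batch 2 and -0.156 without batch 3. The next 4 lists were called in a share near or below the 27.3% of all genes. Of 29 p53 targets (27.6% called) 3 were higher (1 without batch 3) and 5 lower (2 without batch 1 and 3 without batch 3). Of 35 proteasome subunits (5.71% called) 1 was higher (none without batch 1 or batch 2). Another was lower (none without batch 1 or batch 3, and 3 without batch 2). Of 25 immediate early genes (8% called) 1 was higher (2 without batch 2) and 1 lower (none without batch 1 or batch 2). Of 19 fatty acid synthesis genes (15.8% called) 3 were higher and none lower (1 lower without batch 3). In prostate lineage genes, 4 of 19 were higher and 5 lower (2 and 3 without batch 1 or batch 3). Gata2, a transcription factor that works with the androgen receptor, stood at 1.28, 1.42 and 1.73 CPM in control, 1.6, 2.02 and 2.49 CPM with shRNF185.1 and 3.49, 4.14 and 4.43 CPM with shRNF185.3 (log2 1.46 ± 0.12 against control and 0.98 against shRNF185.1, adjusted p = 8.77e-08 and 1.43e-05). Foxa2, a forkhead factor, stood at 5.53, 7.52 and 10.2 CPM in control, 5.08, 7.81 and 9.46 CPM with shRNF185.1 and 3.47, 3.76 and 4.8 CPM with shRNF185.3 (log2 -0.94 ± 0.17 against control and -0.93 against shRNF185.1, adjusted p = 0.000385 and 0.000949), and its control and shRNF185.1 values covered nearly the same range.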

How the data were processed

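RNA libraries of MPC3 cells (3 groups of 6) were made by poly(A) selection with a directional kit and sequenced as single reads of 75 bases, per the labels' protocols. The authors deposited a table of expected counts per gene, of which 0.466% of values are not whole, and a table of CPM, a signal that equals the deposited counts divided by their scaled library sizes; the file names state that ComBat-Seq batch adjustment came first. The submitters' processing notes name cutadapt 2.3, STAR 2.7.0d, RSEM 1.3.1 and mm10, without roles. The model of that adjustment is not given in the sources used here, and an adjustment for batch can change the spread between libraries of a group.

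Counts were rounded and fitted in edgeR 4.0.16 (R 4.3.3) with TMM scaling, a minimum count of 10 in filterByExpr, no covariate and all 18 libraries. Contrasts used the quasi-likelihood F test with Benjamini-Hochberg adjustment, and the script was tested on simulated data. Symbols and coordinates are from GENCODE M21 (GRCm38), promoters from RefSeq. Named genes were Rnf185, Col3a1, the 10 largest rises and falls among genes averaging 50 or more counts that kept their sign in every batch, the 10 highest and lowest set-apart genes ranked by the smaller of their 2 changes, and in each list the leading called and set-apart members; others are said to be chosen after their values were seen. The members and lists were chosen with earlier results of these data known. Hairpin sequences were not analysed here. Some genes that the rule names are not reported here.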

Additional observations from a re-analysis of the deposited data

Results flagged for a closer look

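In 7 named genes the shRNF185.3 and shRNF185.1 groups were both called against control, in opposite directions, and the direct edgeR test of the hairpins passed in each. The log2 difference, shRNF185.3 minus shRNF185.1, was 1.96 in Peg10, 1.36 in Dlc1 and 1.10 in Col1a2. It was -1.61 in Il1rl1, -1.37 in Mfsd6, -1.03 in Zbed3 and -0.744 in Dusp10.

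Single libraries stood away from the 5 others of their group by Dixon's criterion in 10 of 202 groups of 6 values, where chance at 5% would give 10.1. On the log2 CPM scale, control replicate 3 was at 2.26 in Cldn3, with the nearest library at 1.32. Control replicate 6 was low in 3 genes, at 2.12 in Adamts3 (nearest 2.62), 2.55 in Mmp19 (nearest 2.97) and -0.174 in Ifit3 (nearest 1.43). Control replicate 5 was at 6.74 in Golga7 (nearest 6.50) and control replicate 1 at 1.97 in Dlc1 (nearest 2.43). Among the shRNF185.3 libraries, replicate 6 was at 2.74 in Col11a1 (nearest 1.84) and replicate 3 at 4.71 in Igf1 (nearest 4.03). Replicate 1 was at 3.98 in Snai2 (nearest 4.39) and replicate 4 at 3.16 in Dlc1 (nearest 3.34).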

How the results depend on the processing

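The counts of called genes moved most when a batch was left out, which removes 2 libraries from every group. Genes called against control numbered 3906 with all libraries, 2120 without batch 1 and 2501 without batch 3. Against shRNF185.1 they numbered 2098, and 753 without batch 1 and 1208 without batch 2. Set-apart genes numbered 887, and 323 without batch 1 and 456 without batch 2. Genes with a called change of at least 2-fold numbered 561, and 220 with limma on log2(deposited CPM + 1), a scale that shrinks the changes of low genes. Named genes called with all libraries were refitted under each alternative, which gave 1515 fold changes against control and 915 against shRNF185.1. None reversed, and 51 and 75 of them missed the threshold. Named genes were picked as called, many also for keeping their sign in every batch, so few reversals could occur. By gene, 87 of 101 called against control were called under every alternative. Of 57 set-apart genes, 35 were set apart under every alternative. Same-numbered libraries did not deviate together (r over 0.1 in 1 of 6 pairs, mean -0.0475). The control replicates that correlated best with shRNF185.3 replicates 1 to 6 were 5, 6, 5, 6, 3 and 4, odd with odd and even with even. The main fit had no term for such a shared pattern, which a replicate block can absorb. With that block 3578, 1976 and 824 genes were called against control, against shRNF185.1 and set apart. With the replicate block and a GC and length offset these were 4079, 2487 and 1050. Depth limits genes near 1 CPM, such as Agt and Inmt.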
